A study of Mus musculus with 2 samples.

Results

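Some of the epithelial tumour cells in mouse hepatocellular carcinoma carried abundant RNA of MHC class II, the peptide-presenting complex of antigen-presenting cells. These MHC II-high tumour cells were chosen by their own RNA counts in both libraries of the study. A barcode was taken as a tumour cell with at least 5000 UMIs (unique molecular identifiers, the counted RNA molecules), at most 20% of them mitochondrial, and at least 5 UMIs of the epithelial keratins Krt8 and Krt18 together. It also had to have 0 UMIs of the leukocyte gene Ptprc and of the T cell genes Cd3d, Cd3e and Cd3g, and at most 1 UMI of the macrophage genes C1qa, C1qb and C1qc. A tumour cell was MHC II-high when Cd74, H2-Aa, H2-Ab1 and H2-Eb1 together made up at least 0.1% of its UMIs. There were 1645 such cells among 9688 tumour cells and 17473 barcodes, and they were described against the 4129 MHC II-zero tumour cells, which had no UMI of the 4 genes. The remaining 3914 tumour cells lay between.

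The study compared tumours labelled shCtrl (genotype label WT) with tumours labelled shSrsf10, a short hairpin RNA against the splicing factor Srsf10. Its title asks how targeting this factor shapes tumour immunity. Each group was 1 droplet single-cell library made from tumour tissue. The animals' age and strain, the tumour model and the number of pooled animals are not given in the sources used here. The labels name both a 5′ kit with a cell sort of unstated gate and a 3′ kit with a spin that separates hepatocytes from other liver cells, and the sources do not settle which was run. With 1 library a group there was no replicate check and no test between groups. Intervals are at 95% and cover counting error alone, since cells from the same library are not independent samples. A level in CPM is a gene's UMIs summed over a class of cells, for each 1000000 UMIs of that class.

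MHC class II molecules hold peptides from engulfed or internal proteins and show them to CD4 T cells. They are made at rest mainly by B cells, dendritic cells and macrophages, and epithelial cells can be induced to make them by interferon gamma, which acts through the class II transactivator Ciita. H2-Aa and H2-Ab1 encode the chains of the I-A molecule and H2-Eb1 the beta chain of I-E. Cd74 is the invariant chain that occupies the peptide groove during assembly, and the H2-DM proteins exchange its remnant for peptide.

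Ciita does not bind DNA itself and works through proteins at paired sequence boxes, called X and Y, upstream of class II genes. To show the regulatory sequence that the members of this gene family share, the stretch from 150 to 31 bases before the RefSeq start is given for the 4 genes in which both boxes matched and for H2-Aa, a gene of the selection rule, on GRCm38.p6 and in 5′ to 3′ direction of the gene. Capitals mark matches to the X box core AACNGATG and the Y box core TGATTGG.
H2-DMb1 (chr17:34153041-34153160, + strand): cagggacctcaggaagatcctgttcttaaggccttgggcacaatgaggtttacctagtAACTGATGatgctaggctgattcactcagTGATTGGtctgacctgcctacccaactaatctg
H2-DMb2 (chr17:34145099-34145218, + strand): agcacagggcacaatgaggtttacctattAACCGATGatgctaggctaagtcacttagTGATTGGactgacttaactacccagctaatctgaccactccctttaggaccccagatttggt
H2-Eb1 (chr17:34305717-34305836, + strand): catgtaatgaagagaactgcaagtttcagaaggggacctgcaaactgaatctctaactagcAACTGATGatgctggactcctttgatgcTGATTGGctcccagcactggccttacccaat
H2-Eb2 (chr17:34325525-34325644, + strand): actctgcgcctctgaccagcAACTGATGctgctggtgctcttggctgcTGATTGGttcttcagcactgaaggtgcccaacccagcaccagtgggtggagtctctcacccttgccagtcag
H2-Aa (chr17:34287854-34287973, - strand): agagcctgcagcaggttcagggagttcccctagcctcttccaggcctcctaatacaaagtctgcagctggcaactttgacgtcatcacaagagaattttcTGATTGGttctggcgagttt

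The X box core lay before the Y box core in all 4 genes that held both, and the starts of the boxes were 29 bases apart in H2-DMb1 and H2-DMb2 and 28 bases apart in H2-Eb1 and H2-Eb2. H2-Aa held a Y box core 50 bases before its start and no letters of the X core as written. Of 9 class II genes looked up, 8 had a promoter in the RefSeq table, 7 of them with a Y box core and 4 with an X box core. H2-Oa and H2-Ob held a Y box core 45 and 59 bases before their starts, and neither of the H2-DMa promoters listed held either box. Among 32851 mouse promoters of 300 bases, searched on both strands, 7.82% held the Y core, 2.32% the X core and 0.186% both. A match is a description of letters and not a mapped binding site.

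MHC II-high cells were far more frequent among the tumour cells of the shSrsf10 library. In shCtrl they were 243 of 6294 tumour cells, 3.86% (3.40 to 4.37), and in shSrsf10 1402 of 3394, 41.3% (39.6 to 43.0). The difference was 37.4 points (35.7 to 39.2), a fold of 10.7 (9.33 to 12.3). MHC II-zero cells showed the opposite, at 60.4% (59.2 to 61.6) of shCtrl and 9.58% (8.61 to 10.6) of shSrsf10 tumour cells. A share of cells at 0 depends on depth, which was greater in shSrsf10. With every cell thinned at random to 5000 UMIs the MHC II-zero shares were 80.0 and 28.8%, and among tumour cells of 10000 to 20000 UMIs 64.1 and 15.1%. The distribution had no gap at the threshold of 0.1%. Between 0.09 and 0.1% of UMIs lay 31 shCtrl and 63 shSrsf10 cells, and between 0.1 and 0.11% lay 20 and 67. Within the MHC II-high cells the share of UMIs had a median of 0.207% in shCtrl, with quartiles of 0.142 and 0.331%, and of 0.286% in shSrsf10, with quartiles of 0.175 and 0.451%. The highest cell reached 1.45% in shCtrl and 1.60% in shSrsf10. At 0.5% and above there were 17 shCtrl and 274 shSrsf10 cells.

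**Figure D1:**
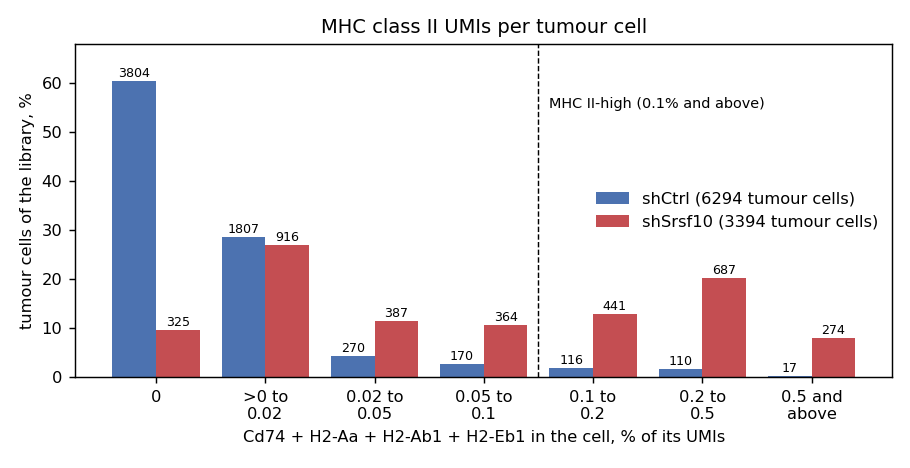
Tumour cells of each library by the share of their UMIs from Cd74, H2-Aa, H2-Ab1 and H2-Eb1 (x axis, percent of UMIs in 7 bins), as percent of the library's tumour cells (y axis), with the number of cells above each bar and a dashed line at 0.1%. The shCtrl bars are highest at 0, with 3804 cells, and the shSrsf10 bars extend to the right, with 687 cells between 0.2 and 0.5%.

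Srsf10 (chromosome 4, 135855747 to 135869908, + strand of GRCm38), the target of the hairpin, stood at 45.5 CPM over all shCtrl tumour cells and 19.5 CPM over all shSrsf10 tumour cells. In the MHC II-high cells it was at 49.0 and 22.3 CPM, a log2 ratio of shSrsf10 over shCtrl of -1.14 (-1.34 to -0.92). In the MHC II-zero cells it was at 45.2 and 15.3 CPM, a log2 ratio of -1.56. Within shSrsf10 the MHC II-high cells thus had more Srsf10 RNA than the MHC II-zero cells, with a log2 ratio of 0.55 (0.25 to 0.85), and within shCtrl the ratio was 0.12 (-0.08 to 0.31). Of 19 measured SR proteins and splicing factors, 0 passed 1.5-fold in either direction between MHC II-high and MHC II-zero cells of either library. Over all genes 17.0% were higher and 6.98% lower in shSrsf10, and 10.9 and 7.40% in shCtrl.

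The label of tumour epithelium was checked on genes that the rule did not use, since it asks for keratin in both classes. Epcam, an epithelial adhesion protein, was at 79.1 CPM in MHC II-zero and 81.7 CPM in MHC II-high cells of shCtrl and 49.8 and 52.4 CPM in shSrsf10. Afp, the fetal albumin-like protein of hepatomas, was at 1666 and 1198 CPM in shCtrl and 1310.4 and 993 CPM in shSrsf10, and albumin (Alb) was at 2281 and 2002 CPM and at 1919 and 1513 CPM. Krt8, which the rule used, stood at 1563, 1552, 1667 and 1684 CPM in the same order and Krt18 at 2122, 2125, 2819 and 2844 CPM, as a description. Of the 8 tumour epithelium markers, which include both keratins, 0 were higher and 1, Apoa1, was lower by at least 1.5-fold in the MHC II-high cells of either library.

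The classes differed in depth in shSrsf10. MHC II-high and MHC II-zero cells had medians of 17405 and 16958 UMIs in shCtrl and of 26362.5 and 18744 UMIs in shSrsf10, with 4835625, 71935165, 41907853 and 6874047 UMIs in all. Over 50000 UMIs lay 2.06 and 1.45% of them in shCtrl and 12.1 and 2.15% in shSrsf10. Of all barcodes, 67 were found in both libraries, and 42 shCtrl and 28 shSrsf10 tumour cells carried one. Without those the MHC II-high shares were 3.89 and 41.3%, and among tumour cells of 10000 to 20000 UMIs they were 3.96 and 42.0%. The part of depth in the gene ratios below was not tested beyond the values given with them.

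The 4 genes that define the cells appeared together. Their levels in MHC II-high cells of shCtrl and shSrsf10 were 1471 and 1835 CPM for Cd74, 249 and 395 CPM for H2-Aa, 362 and 444 CPM for H2-Ab1, and 487 and 608 CPM for H2-Eb1. All 4 were seen in 190 shCtrl cells (78.2%) and 1322 shSrsf10 cells (94.3%), at unequal depth. Cd74 gave a median of 58.1 and 56.6% of a cell's UMIs of the 4 genes. Since these genes made the choice, each was also read in cells chosen by the other 3 alone. Cd74 then stood at 2133 CPM in 98 shCtrl cells where the other 3 passed 0.1%, against 14.3 CPM where they were at 0, a log2 ratio of 7.22 (7.13 to 7.31). In shSrsf10 it was 2435 CPM in 824 cells against 62.1 CPM, a log2 ratio of 5.29 (5.21 to 5.38). The same ratio was 6.58 and 6.16 for H2-Aa, 7.03 and 6.17 for H2-Ab1, and 7.05 and 5.96 for H2-Eb1 in shCtrl and shSrsf10. Each gene was thus high in the cells that the other 3 picked, in both libraries.

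Other cell types that make class II were set beside them. Cells identified by C1q and little keratin, C1q macrophages, held 31621 CPM of the 4 genes in shCtrl and 45371 CPM in shSrsf10, against 2569 and 3282 CPM in the MHC II-high tumour cells. Krt8 was at 56.1 and 12.1 CPM in these macrophages. T cells, which in mice make little class II, were taken as a rough guide to free RNA, which was not measured in empty droplets. With every cell thinned to 1000 UMIs, a UMI of any of the 4 genes marked 7.96% of the shCtrl T cells (4.62 to 12.6) and 8.61% of those of shSrsf10 (7.25 to 10.1). Over all tumour cells the share was 7.79% in shCtrl and 48.0% in shSrsf10, and in MHC II-high cells it was 86.4 and 89.7%. Unthinned, it was 17.9 and 22.7% of T cells, at median depths of 2267 and 2484 UMIs, and 39.6 and 90.4% of all tumour cells, at 18133 and 26751. The 4 genes together were at 88.7 CPM in T cells and 151 CPM in all tumour cells of shCtrl and at 162 and 1474 CPM in shSrsf10. Over all shCtrl tumour cells the thinned share was thus near that of T cells and the level was higher, while in shSrsf10 both were higher. T cells were far shallower, so free RNA may make up an unlike part of their UMIs, and its part in either share was not tested. Of T cell barcodes with at least 5000 UMIs, 0 of 36 in shCtrl passed 0.1% of UMIs, which allows a share of up to 8.33% at the limit of 3 counts and 9.74% at the exact upper bound, and 4 of 244 in shSrsf10, 1.64% (0.45 to 4.14).

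Genes that macrophages carry along with class II were far lower in the MHC II-high tumour cells than in the macrophages. Ctss, the lysosomal protease cathepsin S that trims the invariant chain, was at 1815 and 2442 CPM in C1q macrophages of shCtrl and shSrsf10 and at 8.69 and 3.98 CPM in the MHC II-high cells. Csf1r, the receptor for macrophage growth factor, was at 532 and 353 CPM in those macrophages and at 1.65 and 1.31 CPM in MHC II-high cells, beside 1.32 and 1.60 CPM in MHC II-zero cells. Lyz2, the lysozyme of myeloid cells, was at 2128 and 3701 CPM in macrophages, at 8.89 and 1.89 CPM in MHC II-high cells and at 1.29 and 1.16 CPM in MHC II-zero cells. The B cell gene Ms4a1 had 0 UMIs in shCtrl and 2 in shSrsf10 MHC II-high cells, and the B cell gene Cd79a had 11 and 69, at 2.27 and 1.65 CPM beside 0.292 and 0.727 CPM in MHC II-zero cells.

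Whole marker lists summed over the class gave small amounts that differed between MHC II-high and MHC II-zero cells. The 12 macrophage and monocyte markers summed to 89.1 against 64.7 CPM in shCtrl and 75.7 against 57.6 CPM in shSrsf10. Dendritic cell markers summed to 9.31 against 2.25 CPM and 4.72 against 1.31 CPM. The whole B cell list summed to 396 against 664 CPM in shCtrl and 268 against 450.0 CPM in shSrsf10. Without Ly6d, which tumour cells carry, it summed to 4.96 against 0.626 CPM and 6.80 against 1.31 CPM, and 1 shSrsf10 cell held 69 of its 285 UMIs. T and NK cell markers summed to 3.10 against 3.95 CPM in shCtrl and to 13.6 against 14.4 CPM in shSrsf10. Neutrophil markers summed to 22.7 against 20.7 CPM and 33.1 against 20.4 CPM, and plasma cell markers to 19.9 against 31.4 CPM and 76.8 against 34.3 CPM, where 1 MHC II-high cell held 724 of 3217 UMIs. Without the plasma cell markers that tumour cells carry, the shCtrl sums were 0.827 against 0.125 CPM, from 4 and 9 UMIs. In shSrsf10 they were 51.9 against 2.91 CPM, and 1 MHC II-high cell held 715 of 2174 UMIs. Endothelial markers summed to 34.7 against 37.5 CPM and 30.8 against 28.1 CPM, and fibroblast markers to 21.7 against 12.6 CPM and 64.0 against 101 CPM. The part of these other-cell transcripts in the ratios below was not tested. With every barcode removed that held a UMI of the B, dendritic, plasma, T or NK lists or of 5 macrophage genes, apart from Ly6d, Sdc1 and Derl3, the shares were 3.54 and 40.7%.

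The H2-DM genes, whose product loads peptide onto class II, were among the genes with the widest gaps. H2-DMb1 (chromosome 17, 34153072 to 34160230) was at 2.17 CPM in MHC II-zero and 91.6 CPM in MHC II-high cells of shCtrl and at 2.76 and 132 CPM in shSrsf10. Its log2 ratio was 5.40 (5.13 to 5.67) in shCtrl and 5.58 (4.94 to 6.31) in shSrsf10. H2-DMa (34119541 to 34139101), the partner chain, was at 3.45 and 88.5 CPM and at 5.82 and 122 CPM, a log2 ratio of 4.68 (4.45 to 4.91) and 4.39 (3.94 to 4.88). MHC II-high cells with an H2-DMa UMI numbered 170 (70.0%) and 1173 (83.7%), beside 6.13 and 11.1% of MHC II-zero cells. H2-DMb2, a near copy of H2-DMb1, is uncertain because the counting could have split their reads. It had 17 UMIs against 1 in shCtrl and 379 against 1 in shSrsf10, log2 ratios of 7.98 (5.31 to 13.4) and 5.96 (3.47 to 11.3).

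Ciita (chromosome 16, 10480059 to 10528418), the transactivator that switches class II genes on, was scarce but concentrated in the same cells. It had 13 UMIs in MHC II-zero and 25 in MHC II-high cells of shCtrl, 0.181 and 5.17 CPM, and 3 and 279 UMIs in shSrsf10, 0.436 and 6.66 CPM. The log2 ratio was 4.84 (3.82 to 5.93) in shCtrl and 3.93 (2.37 to 6.22) in shSrsf10. It was seen in 8.64 and 16.7% of MHC II-high cells. Rfx5, Rfxap and Rfxank, the subunits of the complex that binds the X box, lay under 1.5-fold in both libraries, with intervals that held 0.

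Of the class II assembly and loading list, 12 of 14 genes were measured in shSrsf10 (at least 20 UMIs over both classes), 7 higher and 1 lower by at least 1.5-fold, with a median log2 ratio of 1.00. In shCtrl 10 were measured, 4 higher and 1 lower, with a median of 0.42, which was 0.17 with cells thinned to 5000 UMIs and 1.97 with genes of at least 1 UMI. Over all genes, 17.0% of 12198 were higher and 6.98% lower in shSrsf10, with a median of 0.18, and in shCtrl 10.9% of 12766 were higher and 7.40% lower, with a median of 0.11. These shares of all genes are the background for the counts of each list between MHC II-high and MHC II-zero cells below. The cells were chosen by RNA of the same libraries, so these counts are a description. Ctss was higher, from 0.806 to 8.69 CPM in shCtrl and from 0.291 CPM, 2 UMIs, to 3.98 CPM in shSrsf10, log2 ratios of 3.43 and 3.78 (1.90 to 6.83). Its level in shCtrl MHC II-high cells rested on 42 UMIs. The Ctss ratio between the libraries in MHC II-high cells, given below, changed direction without the cells of the highest doublet scores. Ifi30, the lysosomal thiol reductase, was at 89.3 and 112 CPM in shCtrl and 70.3 and 120 CPM in shSrsf10, log2 ratios of 0.33 and 0.77. Ctsl, the protease cathepsin L, was lower, from 435 to 259.95 CPM and from 467 to 228.5 CPM, with log2 ratios of -0.74 and -1.03. Lgmn, the asparagine endopeptidase, had log2 ratios of -0.03 and -0.11, with intervals that held 0. H2-Eb2 had 0 UMIs in both MHC II-zero classes, and its 43 UMIs in shSrsf10 MHC II-high cells were at least 2.35-fold above the floor of 3 counts for that class. H2-Oa and H2-Ob, the inhibitor chains of B cells, had at most 5 UMIs in any of the 4 classes.

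**Figure D2:**
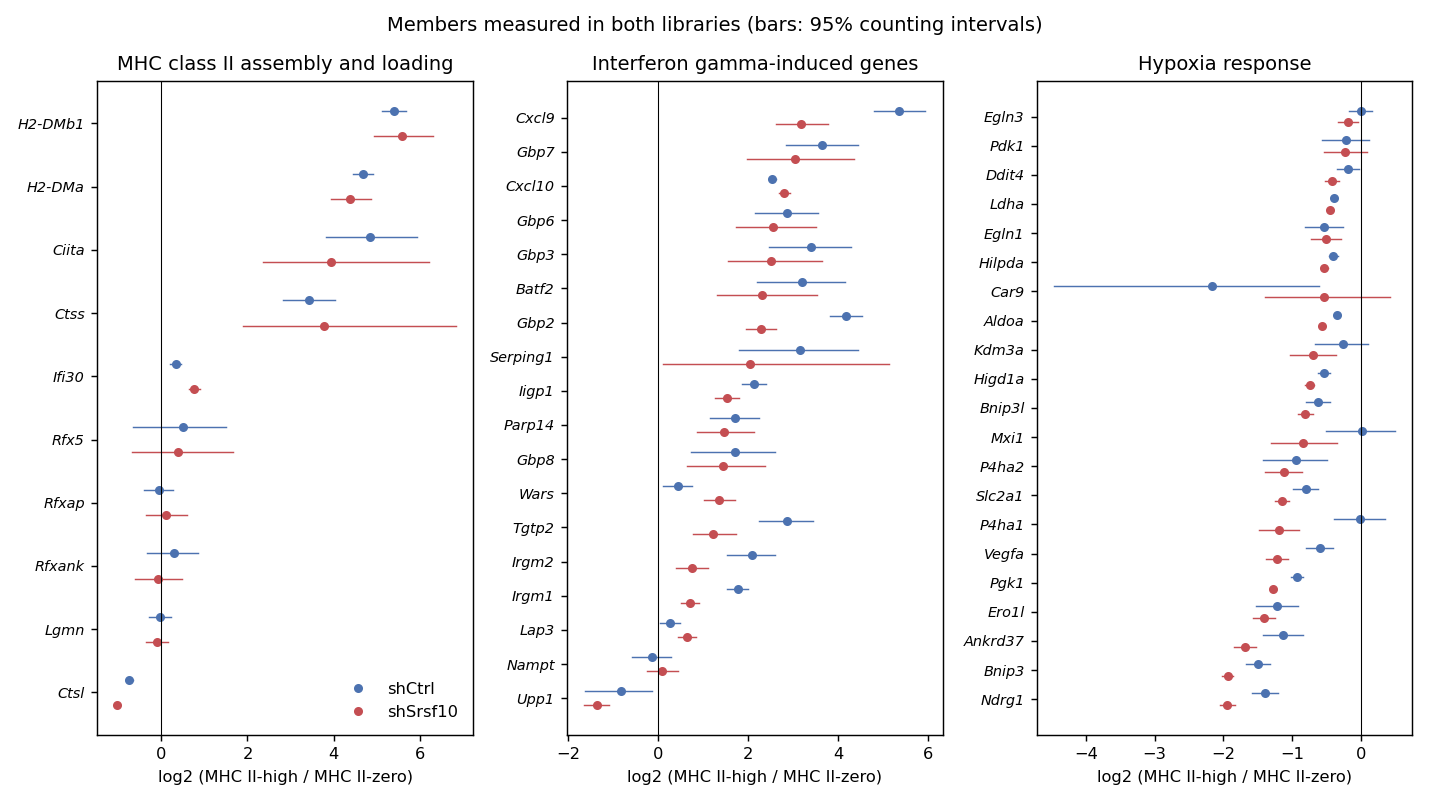
Log2 ratio of MHC II-high over MHC II-zero tumour cells (x axes) for the genes of 3 lists measured in both libraries (class II assembly and loading, interferon gamma-induced genes and the hypoxia response), 1 point a library with 95% counting intervals. H2-DMb1, H2-DMa and Ciita lie between 3.93 and 5.58, Rfx5, Rfxap and Rfxank have intervals across 0, and Ndrg1 and Bnip3 lie between -1.94 and -1.39.

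Genes of MHC class I, which shows internal peptides to CD8 T cells, were higher in MHC II-high cells of both libraries. In shSrsf10 19 of 23 measured members passed 1.5-fold higher and 0 lower, with a median log2 ratio of 1.04, and in shCtrl 18 of 22 and 0, with a median of 1.24. B2m, the light chain, was at 454 CPM in MHC II-zero and 1153 CPM in MHC II-high cells of shCtrl and at 778 and 1409.7 CPM in shSrsf10. H2-D1, a class I heavy chain, was at 251 and 729 CPM and at 528 and 1099 CPM. The immunoproteasome subunit Psmb9 was at 24.4 and 173 CPM and at 71.0 and 283 CPM, log2 ratios of 2.83 (2.71 to 2.95) and 1.99 (1.86 to 2.13). Psmb8 had log2 ratios of 2.64 and 1.92, and the third such subunit, Psmb10, 0.91 and 1.06. Tap1, which carries peptides into the endoplasmic reticulum, was at 13.7 and 64.3 CPM and at 32.6 and 105 CPM, and its partner Tap2 had log2 ratios of 2.13 and 1.58. Nlrc5, the class I transactivator, had log2 ratios of 1.90 and 1.05. Calr, Canx and Pdia3, general folding proteins that also serve class I, lay under 1.5-fold in both libraries. Per cell, the list summed to a median of 4054 CPM in MHC II-high and 2044 CPM in MHC II-zero cells of shCtrl, and of 5370 and 2781 CPM in shSrsf10.

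Interferon gamma signalling genes were higher in part. Irf1, a transcription factor that interferon gamma induces, was at 17.4 CPM in MHC II-zero and 53.6 CPM in MHC II-high cells of shCtrl, and at 57.3 and 93.8 CPM in shSrsf10. Its log2 ratio was 1.62 (1.42 to 1.81) in shCtrl and 0.71 (0.56 to 0.86) in shSrsf10, where the MHC II-zero cells already stood higher. Socs1, the feedback inhibitor of the pathway, was at 9.74 and 30.2 CPM and at 11.6 and 29.8 CPM. The receptor chains Ifngr1 and Ifngr2 and the kinases Jak1 and Jak2 lay under 1.5-fold in both libraries. Of the 14 interferon gamma signalling genes, 4 were higher and 0 lower in shSrsf10, with a median of 0.35, and 7 and 0 in shCtrl, with a median of 0.61.

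Genes that interferon gamma induces were mostly higher in MHC II-high cells. In shSrsf10 20 of 22 measured members were higher and 1 lower, with a median log2 ratio of 1.95, and in shCtrl 14 of 18 and 1, with a median of 2.34. Cxcl9, a chemokine that draws T cells through Cxcr3, was at 0.514 and 21.1 CPM in MHC II-zero and MHC II-high cells of shCtrl and at 3.93 and 35.5 CPM in shSrsf10, log2 ratios of 5.36 (4.8 to 5.94) and 3.18 (2.63 to 3.78). It was seen in 29 of the shCtrl and 266 of the shSrsf10 MHC II-high cells, but 1 shSrsf10 MHC II-zero cell held 59.3% of that class's 27 Cxcl9 UMIs and 1 shCtrl MHC II-high cell 27.5% of its class's. Cxcl10, which acts on the same receptor, was at 56.2 and 327 CPM and at 72.4 and 506 CPM. The guanylate-binding protein Gbp2 was at 1.70 and 30.6 CPM and at 11.5 and 55.9 CPM, and Gbp3 and Gbp7 had log2 ratios from 2.50 to 3.64. The lower member was Upp1, uridine phosphorylase, at -0.83 in shCtrl and -1.37 in shSrsf10. Type I interferon-induced genes were higher in 13 of 23 members and lower in 0 in shSrsf10, with a median of 0.99, and in 15 of 21 and 0 in shCtrl, with a median of 0.79. Among them Zbp1, a sensor of nucleic acids, had log2 ratios of 2.37 and 1.31, Bst2, which tethers budding virus, 1.03 and 1.16, and Ifitm3, which blocks viral entry, 0.60 and 1.07 in shCtrl and shSrsf10.

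**Figure D3:**
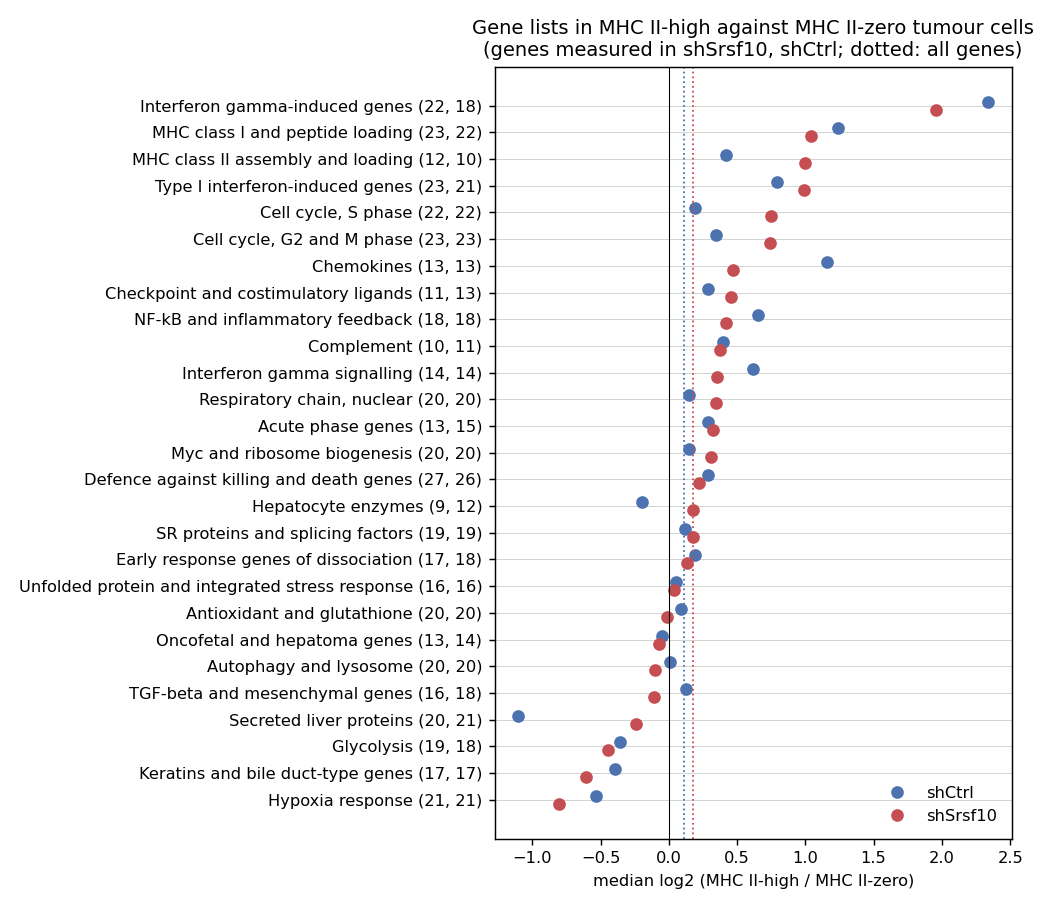
Median log2 ratio of MHC II-high over MHC II-zero tumour cells (x axis) for each gene list (y axis) in shCtrl and shSrsf10, with dotted lines at the medians of all genes, 0.11 and 0.18. Interferon gamma-induced genes lie farthest right, at 2.34 and 1.95, and the hypoxia response lies left of 0 in both libraries.

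Cd274, which encodes the checkpoint ligand PD-L1, was at 0.667 and 4.34 CPM in shCtrl and at 1.89 and 10.6 CPM in shSrsf10, log2 ratios of 2.70 (1.89 to 3.47) and 2.49 (1.70 to 3.41). MHC II-high cells with a Cd274 UMI numbered 16 (6.58%) and 283 (20.2%), beside 1.18 and 2.77% of MHC II-zero cells. With cells thinned to 5000 UMIs these shares were 2.06, 5.28, 0.368 and 1.23%. Tnfsf10, the death ligand TRAIL, had log2 ratios of 2.94 and 2.75. Lgals3, a galectin that the checkpoint list also holds, was lower, at 666 and 369 CPM in shCtrl and 1032 and 398 CPM in shSrsf10. In all, 4 of 11 measured checkpoint and costimulatory ligands were higher and 2 lower in shSrsf10, with a median of 0.46, and 6 of 13 and 2 in shCtrl, with a median of 0.28. Over all genes 17.0% were higher and 6.98% lower in shSrsf10, and 10.9 and 7.40% in shCtrl. Per cell, the summed list was lower in MHC II-high cells. Its median was 586 against 769 CPM in MHC II-zero cells of shCtrl and 653 against 984 CPM in shSrsf10. Lgals3 alone gave 666 of the list's 965 CPM over MHC II-zero cells of shCtrl and 1032 of 1337 CPM in shSrsf10. The sum thus mostly follows Lgals3 and does not describe the other ligands, which were not summed without it.

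Chemokines were higher in 6 of 13 members and lower in 2 in shSrsf10, with a median of 0.47, and in 8 of 13 and 0 in shCtrl, with a median of 1.16. Cxcl1, which draws neutrophils, was at 55.7 and 136 CPM in shCtrl and at 28.5 and 91.1 CPM in shSrsf10. Cxcl16, the ligand of Cxcr6 on T cells, was at 16.4 and 32.7 CPM and at 19.5 and 38.2 CPM. Ccl20, which acts on Ccr6, had log2 ratios of 3.70 and 5.10, but 1 cell held 76.2% of its UMIs in shCtrl MHC II-high cells and 22.8% in those of shSrsf10. Ccl2, which draws monocytes, went opposite ways, with a log2 ratio of 3.31 in shCtrl and -0.95 in shSrsf10, where 1 MHC II-zero cell held 88.1% of that class's UMIs.

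Of the genes that resist or carry out cell death, 7 of 27 were higher and 0 lower in shSrsf10, with a median of 0.22 near the 0.18 of all genes, and 9 of 26 and 0 in shCtrl, with a median of 0.29. Casp4 and Casp1, the inflammatory caspases, had log2 ratios of 2.22 and 1.60 in shCtrl and 1.22 and 1.11 in shSrsf10. Fas, the death receptor, had 1.68 and 0.81, and Birc3, an inhibitor of apoptosis, 1.07 and 1.38. Of NF-kB feedback genes, 4 of 18 were higher and 1 lower in shSrsf10, and 10 of 18 and 1 in shCtrl, beside 17.0 and 10.9% higher of all genes. Among them Icam1, an adhesion molecule for T cells, was at 11.4 and 29.2 CPM in shCtrl and at 17.2 and 39.1 CPM in shSrsf10. Acute phase genes were mixed, with 5 of 13 higher and 1 lower in shSrsf10 and 3 of 15 and 3 in shCtrl. The haptoglobin gene Hp, which binds free haemoglobin, was at 49.5 and 85.6 CPM in shCtrl and 59.9 and 150 CPM in shSrsf10.

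H2-DMa and B2m were graded along the share of class II RNA, also below the threshold. The bins started at 0, above 0, 0.02, 0.05, 0.1, 0.2 and 0.5% of UMIs. In shCtrl H2-DMa stood at 3.45, 3.89, 9.35, 22.4, 44.0, 104 and 283 CPM, and in shSrsf10 at 5.82, 6.48, 12.0, 21.5, 51.1, 118 and 271 CPM. B2m stood at 454, 537, 733, 898, 1000.4, 1265 and 1437 CPM in shCtrl and at 778, 874, 1098, 1186, 1208, 1408 and 1807 CPM in shSrsf10. Each of these 4 series increased at every step. Irf1 did not, and in shCtrl it was at 58.6 CPM in the bin from 0.2% and at 29.1 CPM in the last bin. Bnip3, a hypoxia gene, went from 158 CPM at 0 to 37.9 CPM at 0.5% and above in shCtrl and from 297 to 45.7 CPM in shSrsf10, while Krt8 went from 1563 to 1448 and from 1667 to 1809.6 CPM. The last shCtrl bin held only 17 cells. Just under the threshold, at 0.09 to 0.1% of UMIs, H2-DMa was at 20.7 and 28.1 CPM in shCtrl and shSrsf10, and just over it, at 0.1 to 0.11%, at 42.3 and 37.6 CPM.

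**Figure D4:**
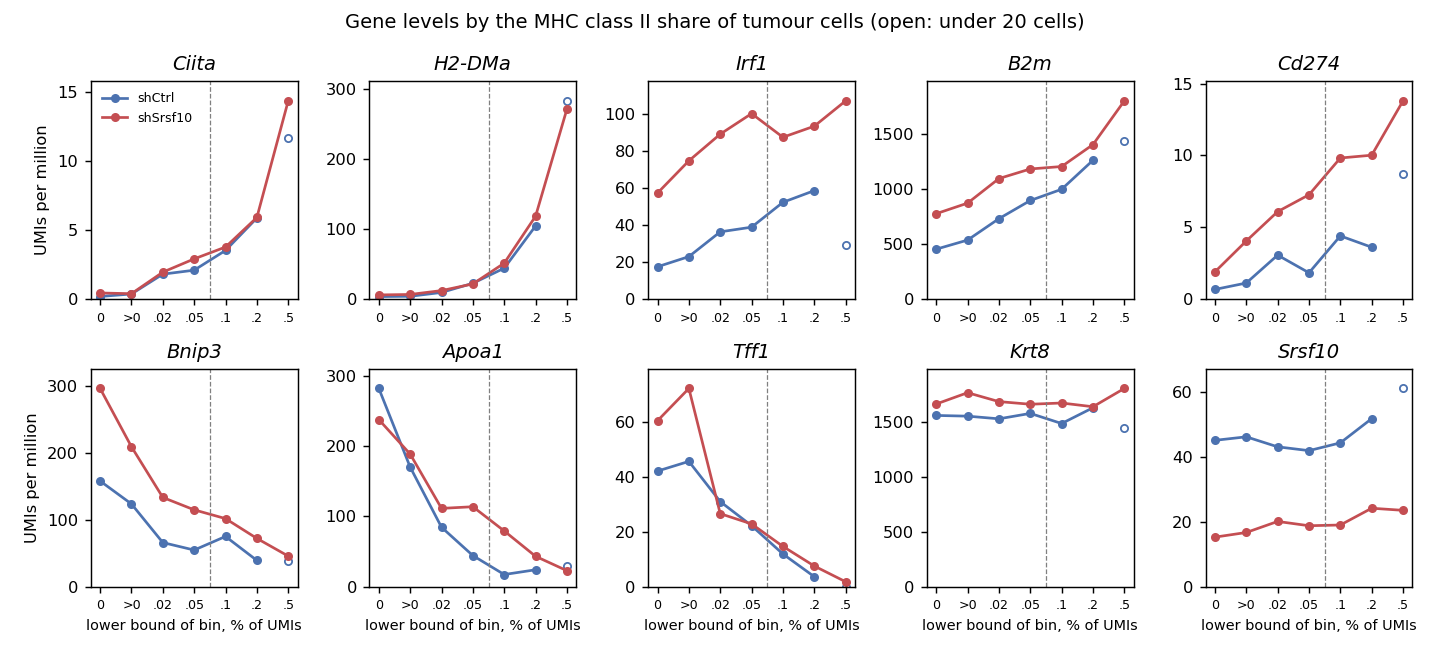
Level of 10 genes in CPM (y axes, linear from 0) over tumour cells binned by the share of UMIs from the 4 class II genes (x axes, lower bound of the bin in percent of UMIs), 1 line a library, with an open point for the bin of under 20 cells and a dashed line at 0.1%. H2-DMa and B2m climb across the bins in both libraries, Bnip3 ends lower than it starts, and Krt8 ends at 1448 CPM in shCtrl and 1809.6 CPM in shSrsf10.

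Hypoxia genes were lower in the MHC II-high cells. In shSrsf10 13 of 21 measured members were lower by at least 1.5-fold and 0 higher, with a median log2 ratio of -0.81, and in shCtrl 10 of 21 and 0, with a median of -0.53. Ndrg1, a stress gene induced by low oxygen, was at 128 CPM in MHC II-zero and 48.6 CPM in MHC II-high cells of shCtrl and at 158 and 41.0 CPM in shSrsf10, log2 ratios of -1.39 (-1.59 to -1.21) and -1.94 (-2.05 to -1.83). Bnip3, a mitophagy receptor, was at 158 and 56.0 CPM and at 297 and 77.7 CPM. Pgk1, a glycolytic enzyme, was at 404 and 212 CPM and at 755 and 311 CPM, and Slc2a1, the glucose transporter, at 98.5 and 56.5 CPM and at 141 and 63.7 CPM. Of the glycolysis list 5 of 19 were lower in shSrsf10 and 3 of 18 in shCtrl, and 0 were higher. Over all genes 6.98 and 7.40% were lower and 17.0 and 10.9% higher.

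Liver secretory genes were lower in shCtrl and mixed in shSrsf10. In shCtrl 13 of 21 were lower and 0 higher, with a median log2 ratio of -1.10, and in shSrsf10 8 of 20 were lower and 5 higher, with a median of -0.24. That median was 0.30 among cells of 10000 to 20000 UMIs. Apoa1, the main protein of high-density lipoprotein, was at 282 and 21.1 CPM in MHC II-zero and MHC II-high cells of shCtrl and at 237 and 51.8 CPM in shSrsf10, log2 ratios of -3.74 (-4.03 to -3.46) and -2.20 (-2.29 to -2.10). Apoc2, the activator of lipoprotein lipase, was at 629 and 143 CPM and at 857 and 224 CPM. Apoc3 and Serpina1a, an inhibitor of lipoprotein lipase and an antitrypsin, had log2 ratios of -4.25 and -3.89 in shCtrl and of -3.95 and -3.45 in shSrsf10. Apoc3 was seen in only 3 shCtrl MHC II-high cells and 10 shSrsf10 MHC II-zero cells, 1 of which held 36.5% of that class's UMIs. Thinned to 5000 UMIs, Apoc3 marked 0.412% of MHC II-high and 2.13% of MHC II-zero cells of shCtrl. In shSrsf10 it marked 0.785 and 1.54%, and the intervals of the classes overlapped in both libraries. By summed UMIs, Fabp1 and Apoa2 went opposite ways in the libraries, with log2 ratios of -3.63 and -1.94 in shCtrl and of 1.25 and 1.30 in shSrsf10. In shSrsf10 1 MHC II-high cell held 25.9% of the class's Fabp1 UMIs and 35.5% of its Apoa2 UMIs. The shares of cells with a UMI, after thinning to 5000 UMIs, did not show this. Apoa2 was seen in 9.05% of MHC II-high and 7.54% of MHC II-zero cells of shCtrl and in 5.56 and 4.92% in shSrsf10. For Fabp1 these shares were 4.12 and 4.15% in shCtrl and 4.28 and 2.77% in shSrsf10. The intervals of the classes overlapped each time.

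Bile duct-type genes were lower too, 9 of 17 in shSrsf10 with 0 higher and a median of -0.61, and 6 of 17 in shCtrl with 1 higher and a median of -0.39. Tff1, a mucosal trefoil peptide, was at 42.1 and 7.24 CPM in shCtrl and at 60.4 and 8.92 CPM in shSrsf10. Tff2, of the same family, was at 272 and 122 CPM and at 1102 and 281 CPM, and Krt19, the duct keratin, at 372 and 215 CPM and at 570 and 286 CPM. The higher member in shCtrl was Ly6a, the surface protein Sca-1, which interferon also induces in mice, at 30.9 and 131 CPM, and in shSrsf10 it was at 333 and 437 CPM. Outside the lists, Celf2, an RNA-binding protein, had log2 ratios of -1.18 and -1.41, Peak1, a pseudokinase, -1.17 and -1.41, Scn8a, a sodium channel, -1.23 and -1.30, and Igfbp3, which binds insulin-like growth factors, -0.76 and -1.23 in shCtrl and shSrsf10.

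Counts of cell cycle genes past 1.5-fold differed by library, but the G2 and M phase medians depended on the cells taken. In shSrsf10 18 of 22 S phase genes and 16 of 23 G2 and M phase genes were higher in MHC II-high cells and 0 lower, with medians of 0.75 and 0.74. In shCtrl 0 of 22 and 2 of 23 were higher, with medians of 0.19 and 0.35, and the second was 0.72 in cells of 10000 to 20000 UMIs, where shSrsf10 had 0.44. Rrm2, a subunit of ribonucleotide reductase, was at 24.3 and 28.7 CPM in shCtrl and at 16.1 and 38.9 CPM in shSrsf10. With cells thinned to 5000 UMIs the shSrsf10 medians were 0.39 and 0.46. With every UMI of an immune marker barred, which left 808 shCtrl and 524 shSrsf10 tumour cells, they were 0.39 and 0.02.

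Over all genes measured in both libraries, 12003, the genes higher in MHC II-high cells overlapped in part. Of those called higher, 561 were shared, 28.5% of the 1967 in shSrsf10 and 47.4% of the 1184 in shCtrl, and 304 lower calls were shared, 36.7% of 829 and 39.1% of 778. Over these 12003 genes 16.4% were higher in shSrsf10 and 9.86% in shCtrl. Another 110 genes were higher in shSrsf10 and lower in shCtrl, and 76 the reverse. The median log2 ratio of all genes depended on scaling in shSrsf10. Without mitochondrial and ribosomal protein genes in the total it was 0.05, a shift of -0.13, and 1515 genes were higher and 1145 lower in place of 2076 and 851. Under this scaling the shSrsf10 medians were 0.92 for the class I list, 1.83 for interferon gamma-induced genes and -0.93 for the hypoxia list.

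Between the libraries, MHC II-high cells of shSrsf10 had higher levels of most interferon gamma-induced genes than MHC II-high cells of shCtrl. Of 22 interferon gamma-induced genes, 16 were higher and 1 lower, with a median log2 ratio of shSrsf10 over shCtrl of 0.78, against 7.90% higher and 16.8% lower of 12142 genes and a median of -0.09. In the MHC II-zero cells 12 of 17 were higher and 0 lower, with a median of 1.39, against 7.42% higher and 19.1% lower of 12765 genes. Irf1 had a log2 ratio of 0.81 (0.63 to 1.0) in MHC II-high and 1.72 (1.55 to 1.88) in MHC II-zero cells. Type I interferon-induced genes in MHC II-high cells had 4 of 23 higher and 2 lower, with a median of 0.17, and interferon gamma signalling genes 1 of 14 and 1, with a median of -0.03. The class I list gave a median of 0.36 with 4 of 23 higher in MHC II-high cells, and 0.54 with 10 of 22 higher in MHC II-zero cells. H2-DMb1 and H2-DMa had log2 ratios of 0.53 and 0.46 in MHC II-high cells and Ciita of 0.36 (-0.23 to 1.02). Ctss was at -1.12 (-1.62 to -0.60), but at 0.63 without the cells of the highest doublet scores. Rfxap was lower in both classes, at -1.26 and -1.43. The MHC II-high cells were not matched for class II RNA, with a median share of 0.207% in shCtrl and 0.286% in shSrsf10. In the bins from 0.1, 0.2 and 0.5%, H2-DMa was at 44.0, 104 and 283 CPM in shCtrl. In shSrsf10 it was at 51.1, 118 and 271 CPM. H2-DMb1 was at 58.9, 106 and 219 CPM and at 69.7, 136 and 245 CPM. Ciita was at 3.52, 5.86 and 11.7 CPM and at 3.76, 5.90 and 14.3 CPM.

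Among the other genes with the widest gaps between the libraries, some showed them in both classes and some in MHC II-high cells alone by the 1.5-fold mark. Ly6a was at 131 CPM in shCtrl and 437 CPM in shSrsf10 MHC II-high cells, a log2 ratio of 1.74 (1.62 to 1.85), and the MHC II-zero cells gave 3.43. Tff2 had 1.21 and 2.02. Ltb, a lymphotoxin chain, had 1.03 and 0.78 and Vamp5, a vesicle protein, 0.78 and 0.66. Wfdc12, a small protease inhibitor, was at 87.5 and 176 CPM in MHC II-high cells, a log2 ratio of 1.01 (0.87 to 1.16), and had -0.09 (-0.22 to 0.03) in MHC II-zero cells. Wfdc12 was also a leading gene of a tumour cell cluster, described below, that held 4.99% of the shSrsf10 MHC II-high cells. The part of that cluster in this gap was not tested. Cmbl, a hydrolase, had 0.82 (0.64 to 1.0) and 0.27 (0.12 to 0.42), and Hp 0.81 (0.67 to 0.96) and 0.28 (0.13 to 0.42). Selenbp1, a selenium-binding protein, had 0.81 and 0.81. Lower in shSrsf10 were Tmem238, from 125 to 19.8 CPM, and Bri3, from 254 to 56.6 CPM, with log2 ratios of -2.66 and -2.16 in MHC II-high and of -2.94 and -2.21 in MHC II-zero cells. Spp2, a secreted phosphoprotein, had -1.77 and -1.71, and Ttr, the thyroxine carrier transthyretin, -1.51 and -2.06. Tmem160, Rab5if, Glrx5 and Scand1 completed the lowest genes, with log2 ratios from -1.96 to -1.38.

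The MHC II-high cells were spread over the tumour cell states. Tumour cells of both libraries were clustered without class I, class II, interferon and chemokine genes, and 10 of 13 clusters held at least 50 tumour cells of each library. The MHC II-high share was higher in shSrsf10 in all 10 of these. It ran from 0 to 22.1% in shCtrl, with a median of 4.55%, and from 16.6 to 57.8% in shSrsf10, with a median of 43.3%. A cluster led by Tex101 and Wfdc12 was left out for its 18 shCtrl tumour cells. Its shSrsf10 share was the highest of all clusters, 82.4% of 85 tumour cells, beside 16.7% in shCtrl. The other clusters left out held 52 and 39 shCtrl and 44 and 10 shSrsf10 tumour cells. The cluster led by the hypoxia genes Ndrg1 and Bnip3 had the lowest share in shSrsf10, 16.6%, and 0.507% in shCtrl. A cluster led by the mitotic genes Ube2c, Cdc20 and Birc5 had 57.8% in shSrsf10 and 15.7% in shCtrl. Its 525 cells were 37.4% of the shSrsf10 MHC II-high cells. Another cluster led by mitotic genes, Ube2c, Top2a and Cdk1, had 32.7% in shSrsf10 and 3.71% in shCtrl, both below the medians. A high share was thus not common to the clusters led by mitotic genes. A cluster led by Notum and Ttr held 75 cells, 30.9% of those in shCtrl, with shares of 5.22% in shCtrl and 48.3% in shSrsf10. The cluster led by Tff2 and Ly6a had 4.47 and 34.1%, and the cluster led by Fabp1 and Serpina1a had 0 of 361 cells in shCtrl, which allows up to 0.831% at the limit of 3 counts and 1.02% at the exact upper bound, and 26.5% in shSrsf10. The highest shCtrl share, 22.1%, was in a cluster whose leading genes, Ighg2b, Jchain and S100a9, belong to plasma cells and neutrophils, and that cluster had 46.2% in shSrsf10.

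**Figure D5:**
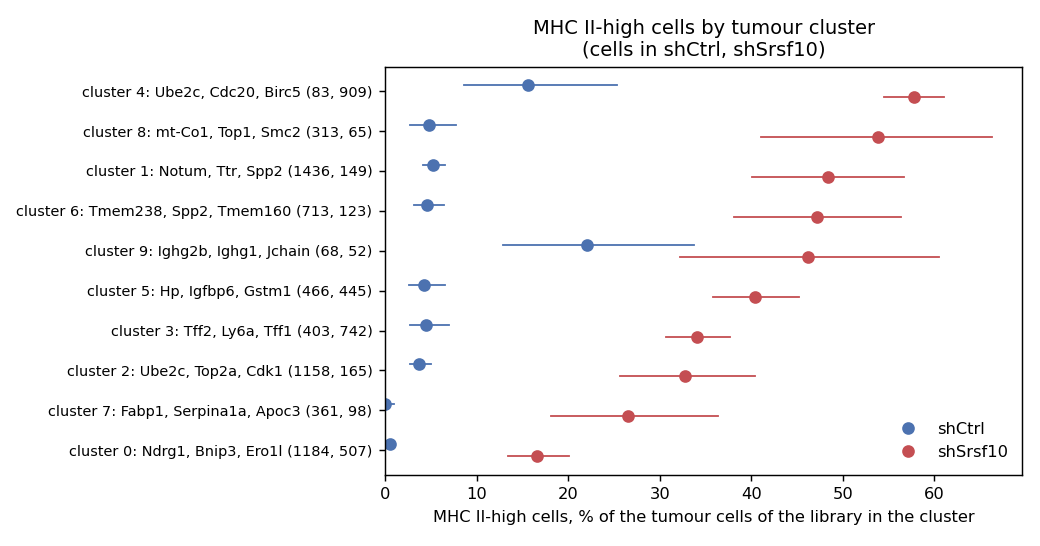
Share of tumour cells that were MHC II-high (x axis, percent, with exact 95% intervals) in each cluster with at least 50 tumour cells in both libraries (y axis, named by leading genes). In all 10 clusters the shSrsf10 point lies right of the shCtrl point, from 16.6 to 57.8% against 0 to 22.1%.

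Inside clusters the class I and interferon lists had medians above those of all genes, and the hypoxia list had medians from -0.25 to 0.02. The clustering left out the class I, class II, interferon and chemokine genes but not the hypoxia, liver or cell cycle genes. Clusters formed with a gene can even out its level inside them, so the left-out lists and the others cannot be compared here. In each library 3 clusters, not the same ones, had at least 30 MHC II-high and 30 MHC II-zero cells. There the interferon gamma-induced list had median log2 ratios of 0.79 to 1.59 in shCtrl and 0.76 to 1.97 in shSrsf10. The class I list had 0.99 to 1.20 and 0.58 to 1.44, and the type I interferon list 0.46 to 0.79 and 0.56 to 1.23. The class II assembly list had -0.10 to 0.05 and 0.43 to 1.29. Hypoxia genes had medians of -0.20 to -0.04 and -0.25 to 0.02 beside -0.02 to 0.01 and 0.02 to 0.15 over all genes. The lowest, in shSrsf10 cells of the cluster led by Ndrg1 and Bnip3, had 4 of 20 genes lower and 0 higher. Of all 7617 genes measured in that comparison, 668 were lower and 1489 higher. Secreted liver proteins had -0.24 to 0.02 and -0.53 to 0.68. S phase genes had -0.29 to 0.02 in shCtrl and 0.19 to 0.60 in shSrsf10.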

How the data were processed

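The authors deposited 1 matrix of UMI counts per gene and barcode for each of 2 libraries, which hold raw counts. Per the submitters' processing notes, Cell Ranger 6.1.0 and mm10 were used. The matrices list 32285 features, of which 40 symbols are duplicated, and the copy with more UMIs was kept. The members and gene lists were chosen with earlier results of these data known.

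UMIs were summed over MHC II-high and MHC II-zero cells of each library and compared as ratios of CPM, for genes with at least 20 UMIs over both classes. A ratio of at least 1.5-fold was counted, with a class at 0 set to a floor of 3 counts. Intervals are exact, at 95%, and cover counting error only. No test was possible with 1 library a group. Detection was compared after thinning to 5000 or 1000 UMIs. Doublets were scored with Scrublet, which by itself marked 0 shCtrl and 206 shSrsf10 barcodes, and no cell was removed; removing the 787 and 456 highest scores was an alternative. Clusters came from Leiden clustering at resolution 0.8. Of 649 gene list entries, 645 matched.

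The genes named were the 4 rule genes, Krt8, Krt18, Srsf10, the class II list, the members with the largest ratios of the lists described, the 10 highest and 10 lowest between classes in shSrsf10 with the same direction in shCtrl, and the 8 highest and 8 lowest between libraries, at 50 UMIs and 100 CPM or more. This rule passed over genes of the mitochondrion, ribosome, haemoglobin, X and Y chromosomes and antigen receptor segments, and those with a model number in place of a name. Other genes named were chosen after their values were seen. Gene coordinates are from GENCODE vM21 on GRCm38 and promoters from RefSeq on GRCm38.p6. The scripts were tested on simulated data and used Python 3.11.15, numpy 2.4.6, scipy 1.17.1, pandas 2.3.3, scanpy 1.11.5, leidenalg 0.10.2 and matplotlib 3.10.9.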

Additional observations from a re-analysis of the deposited data

Results flagged for a closer look

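Among the genes of the lists and those named by rule, 3 went opposite ways in the libraries between MHC II-high and MHC II-zero cells, past 1.5-fold and with intervals on either side of 0, and the difference between the libraries was not tested. Apoa2, an apolipoprotein, had a log2 ratio of 1.30 (1.01 to 1.60) in shSrsf10 and -1.94 (-2.24 to -1.66) in shCtrl. Fabp1, the liver fatty acid-binding protein, had 1.25 (1.02 to 1.49) in shSrsf10 and -3.63 (-4.21 to -3.11) in shCtrl. Ccl2, a chemokine for monocytes, had -0.95 (-1.13 to -0.76) in shSrsf10 and 3.31 (2.66 to 3.94) in shCtrl. In shSrsf10, 1 MHC II-zero cell held 88.1% of that class's Ccl2 UMIs and 55.2% was held by 1 such cell for Fabp1. These ratios are of summed UMIs. For Apoa2 and Fabp1 the shares of cells with a UMI, after thinning to 5000 UMIs, had overlapping intervals between the classes in both libraries.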

How the results depend on the processing

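No paired analysis was possible because each group is 1 library. The shares of MHC II-high cells in shCtrl and shSrsf10 were 6.56 and 52.0% at a threshold of 0.05% of UMIs, 2.02 and 28.3% at 0.2%, and 6.19 and 47.3% with no UMI of any immune marker. With cells thinned to 5000 UMIs, 1377 genes were higher and 388 lower in MHC II-high cells of shSrsf10. In the same setting the log2 ratio of other cells' markers there was -0.90 for B cells, 0.44 for dendritic cells, -0.40 for fibroblasts, 0.22 for neutrophils and 1.47 for plasma cells. With at least 50 UMIs a gene, 557 genes were lower in MHC II-high cells of shSrsf10, and shSrsf10 over shCtrl gave 629 higher in MHC II-high and 568 in MHC II-zero cells. With at least 1 UMI, 1539 were lower in MHC II-high cells of shSrsf10, 2349 higher in those of shCtrl, and 1726 higher in shSrsf10 MHC II-zero cells. At 0.05% the log2 ratios of the left-out genes were 6.76 for Cd74, 5.91 for H2-Aa, 6.42 for H2-Ab1 and 6.45 for H2-Eb1 in shCtrl, and 5.0 for Cd74 and 5.65 for H2-Eb1 in shSrsf10. Directions changed for Ccl2 in shSrsf10 (0.067 with no immune marker UMI, 1.84 with Ly6d, Sdc1 and Derl3 allowed). Between libraries they changed in MHC II-high cells for Apoa2 (-0.95) and Ccl2 (-0.52) with no immune marker UMI, for Ctss (0.63) without the highest doublet scores, and for Ccl20 (-1.94) in cells of 0.1 to 0.2%. The cause of these changes was not tested. Of 862 single-gene values, 6 changed direction, 25 lost and 31 gained a ratio past 1.5-fold. Of 1161 list medians 59 moved, among them that of secreted liver proteins in shSrsf10, which was 0.46 with no immune marker UMI against -0.24.

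The filter that allows Ly6d, Sdc1 and Derl3, the limit to 10000 to 20000 UMIs and the removal of shared barcodes were chosen after seeing the data. With 1 library a group, the library and the hairpin cannot be told apart. MHC II-zero cells of shSrsf10 held 6874047 UMIs and MHC II-high cells of shCtrl 4835625, so genes under about 1 CPM rest on few counts there.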
